A study of Homo sapiens with 6 samples.

Results

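Aminoacyl-tRNA synthetase genes were followed in T24 cells, a human urothelial carcinoma cell line, after siRNA against TRIM28. The members were the rows of the count table that carry the symbols of 35 named synthetase genes, of 78932 genes in the table, and the rule used no measured value. Of these, 19 genes were taken as cytosolic (symbols ending in 1, EPRS1, FARSA and FARSB) and 16 as mitochondrial (symbols ending in 2). All 35 passed the filter on low counts, which left 18474 genes for testing.

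Poly(A) RNA was sequenced from 3 cultures transfected with the non-targeting control siRNA (siNC) and 3 transfected with siTRIM28. The sample titles number them as replicates 1 to 3 of each group and name no batch. The sources used here do not say which siRNA against TRIM28 was transfected for sequencing, and a single cell line was used. TRIM28 is a transcriptional co-repressor recruited by zinc finger proteins, and the sequencing asked which transcripts change when it is depleted.

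Each synthetase joins an amino acid to its matching tRNA, the step that fixes which amino acid a codon is read as. Cytosolic and mitochondrial translation mostly use separate enzymes, all encoded in the nucleus, although GARS1 and KARS1 each encode both forms. Many cytosolic synthetase genes are known targets of ATF4, the transcription factor of the amino acid response, which binds composite elements shared with C/EBP proteins.

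Total counts were between 11712623 and 14018052 per library. TRIM28 had 1419, 1393 and 1382 counts in siNC and 130, 96 and 109 in siTRIM28, a fall from 104 ± 4.09 to 8.87 ± 0.658 CPM (TMM-normalized counts scaled to library size, mean ± SD, n = 3), with a log2 fold change of -3.54 (SE 0.0723, adjusted p = 1.03e-10). The epithelial keratins KRT8 and KRT18 were at 104 ± 0.619 and 86.1 ± 3.91 CPM in siNC, whereas the urothelial markers GATA3, KRT19, UPK1B, UPK2 and UPK3A stayed below the filter, and UPK1B had 0 counts in all libraries. Among markers of other cells, PTPRC, PECAM1 and COL1A2 stayed below the filter, CD68 was at 348 ± 2.38 CPM in siNC and 351 ± 12.1 in siTRIM28, and COL1A1 was at 0.932 ± 0.265 and 3.28 ± 0.635. KRT7 and UPK1A were low in siNC, at 2.84 ± 0.157 and 0.874 ± 0.490 CPM, and at 4.20 ± 0.0965 and 3.41 ± 0.658 CPM in siTRIM28. Any part of these markers in the results was not tested. Within siTRIM28, replicate 1 stood apart, with a chi-square per degree of freedom of 6.96 and 6.29 against replicates 2 and 3, which differed from each other by 1.24. Within siNC, replicate 3 stood apart from replicates 1 and 2 by 4.45 and 4.51, against 1.08 between those 2. Without siTRIM28 replicate 1, 23 synthetase genes passed the test instead of 21, and without siNC replicate 3, 20 did.

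Windows of 300 bases around the start sites, 250 before and 50 after, were at hand for 30 of the 35 members (RefSeq, GRCh38.p14), and not for LARS1, VARS1, YARS1, AARS2 or VARS2. The core of the C/EBP-ATF element, TGATGNAA on either strand, was found in 8 of these 30 (26.7%), against 1270 of all 35116 windows (3.62%) and 302 of the 11033 tested genes with a window (2.74%). It was in 7 of 16 cytosolic genes with a window (43.8%) and in 1 of 14 mitochondrial genes with a window (7.14%), YARS2. The 30 members had 39 windows, and a gene was counted once if any of its windows held a match. The share of all windows is therefore not on the same unit as the shares of genes. The 8 matches are shown because several of the largest rises described later were of genes that hold them. Each line reads 5′ to 3′ on the strand of the gene, with the match in capitals, and a match on the opposite strand therefore reads as its reverse complement.
AARS1: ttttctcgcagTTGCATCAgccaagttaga
CARS1: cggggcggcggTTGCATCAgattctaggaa
IARS1: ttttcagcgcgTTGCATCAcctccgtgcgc
MARS1: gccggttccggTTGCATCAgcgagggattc
TARS1: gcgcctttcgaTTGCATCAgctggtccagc
NARS1: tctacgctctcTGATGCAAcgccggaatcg
GARS1: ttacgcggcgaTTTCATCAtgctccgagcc
YARS2: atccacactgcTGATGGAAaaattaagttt

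The letters in capitals lie at chr16:70289686-70289693 (AARS1, minus strand), chr11:3057418-3057425 (CARS1, minus), chr9:92293703-92293710 (IARS1, minus), chr12:57488064-57488071 (MARS1, plus), chr5:33440967-33440974 (TARS1, plus), chr18:57621815-57621822 (NARS1, minus), chr7:30594845-30594852 (GARS1, plus) and chr12:32756087-32756094 (YARS2, minus). The first letter of the match was 2 bases before the RefSeq start site in CARS1, 4 in MARS1, 13 in IARS1 and 33 in GARS1, whereas it was 187 before in AARS1 and 197 before in YARS2. In TARS1 and NARS1 it fell just after the start. AARS1, CARS1, IARS1, MARS1 and TARS1 held the same 8 letters, and NARS1 held their reverse complement. A match is a description of these letters and does not show that a factor binds there.

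Of the genes that passed the test, as many cytosolic genes rose as fell, and all mitochondrial genes but CARS2 fell. Among the 19 cytosolic genes, 6 rose (AARS1, CARS1, EPRS1, MARS1, NARS1 and TARS1), 6 fell (FARSB, GARS1, LARS1, VARS1, WARS1 and YARS1) and 7 did not pass the test, at an adjusted p under 0.05. These are 31.6% in each direction, against 21.3% higher and 20.5% lower of all genes tested. Among the 16 mitochondrial genes, CARS2 alone rose (6.25%), 8 fell (50%: EARS2, LARS2, NARS2, PARS2, SARS2, TARS2, VARS2 and YARS2) and 7 did not pass. The median log2 fold change was -0.08 over the cytosolic genes and -0.25 over the mitochondrial genes, against 0.02 over all genes tested. Values below 0 were found in 12 of the 19 cytosolic and 14 of the 16 mitochondrial genes, against 8955 of all 18474 genes tested.

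**Figure D1:**
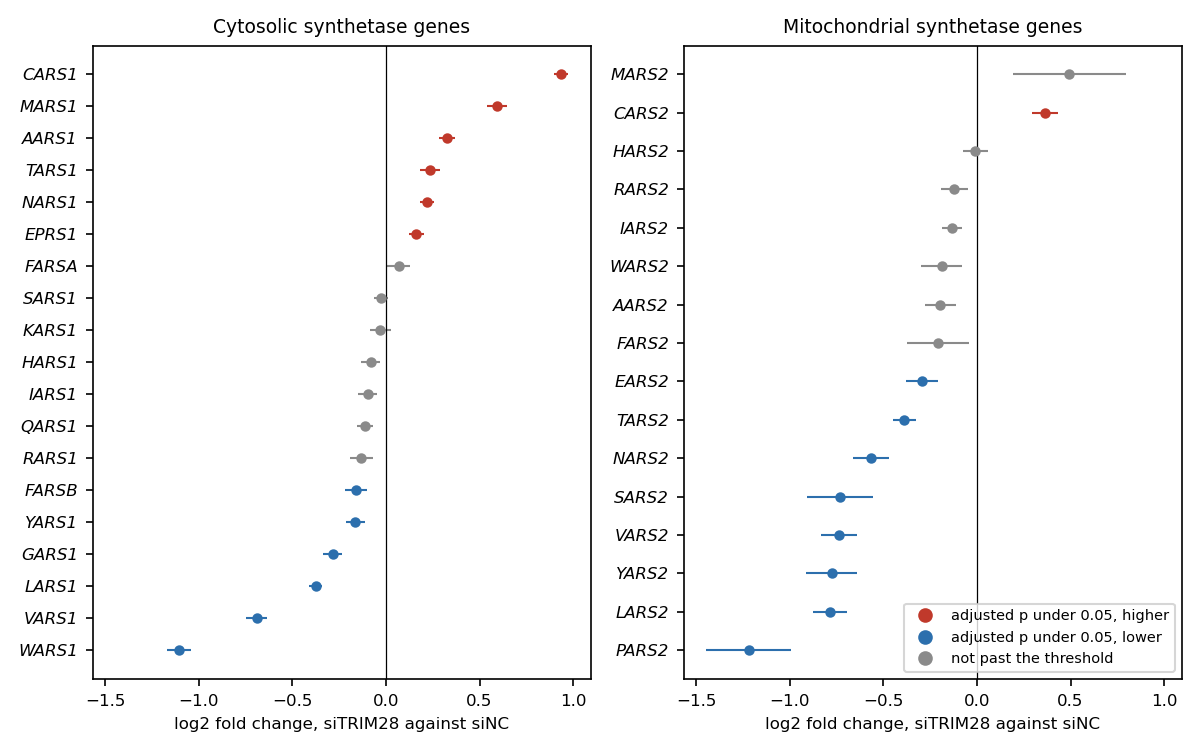
Log2 fold change of each synthetase gene, siTRIM28 against siNC (horizontal axis), with bars of 1 standard error, for the 19 cytosolic genes on the left and the 16 mitochondrial genes on the right, each ordered by its value. Cytosolic values run from -1.11 (WARS1) to 0.93 (CARS1), while on the right only CARS2 is past the test on the higher side and PARS2 lies lowest at -1.22.

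When the log2 fold change also had to reach 0.58 in either direction, CARS1 and MARS1 stayed on the higher side, 2 of 19 cytosolic and 0 of 16 mitochondrial genes, against 9.51% of all genes tested. On the lower side stayed VARS1 and WARS1, 2 of 19, and LARS2, PARS2, SARS2, VARS2 and YARS2, 5 of 16, against 7.51% of all genes tested. The ranges of the 3 siNC and the 3 siTRIM28 values did not overlap in 6 cytosolic genes and 1 mitochondrial gene that were higher in siTRIM28, against 26.3% of all genes tested. They did not overlap in 9 cytosolic and 10 mitochondrial genes that were lower, against 25.7% of all genes tested. The 5 genes that were lower without overlap and did not pass the test were IARS1, QARS1, RARS1, AARS2 and IARS2.

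CARS1 (chr11:3000922-3057423, GRCh38), which encodes cysteinyl-tRNA synthetase, had the largest rise of the 35 genes. Its level was 105, 105 and 106 CPM in siNC replicates 1, 2 and 3, and 203, 200.5 and 199.7 CPM in siTRIM28 replicates 1, 2 and 3. The libraries of each group lay close together and the groups were far apart, at 105 ± 0.639 and 201 ± 1.80 CPM (SD, n = 3), a ratio of 1.91. The log2 fold change was 0.93 (SE 0.0395, adjusted p = 1.61e-08). The antisense gene CARS1-AS1 overlaps CARS1. It had a mean of 78.3 counts against 1974 for CARS1 and a log2 fold change of 0.87 (adjusted p = 4.49e-04). A bulk library cannot tell fewer cells with a transcript from less of it per cell, here and in the results that follow.

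MARS1 (chr12:57475445-57517569) encodes methionyl-tRNA synthetase, which charges both the initiator and the elongator tRNA of methionine. It was at 74.7, 71.7 and 66.3 CPM in siNC and at 107, 107 and 108 CPM in siTRIM28. All 3 siTRIM28 libraries were above all 3 siNC libraries, with a log2 fold change of 0.59 (SE 0.0533, adjusted p = 4.44e-06). DDIT3 (chr12:57516588-57521737), for a stress response factor, lies on the opposite strand and overlaps MARS1 only in part. It had a mean of 560 counts against 1152 for MARS1, and its log2 fold change was 0.91. The kit kept strand, but whether the counting used it is not given in the sources used here, so reads of such neighbours cannot be told apart.

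AARS1 (chr16:70251983-70289707), for alanyl-tRNA synthetase, was at 182, 192 and 194 CPM in siNC and at 233, 244 and 234 CPM in siTRIM28. The groups did not overlap, and the log2 fold change was 0.33 (SE 0.0426, adjusted p = 8.70e-05). The threonyl enzyme TARS1 rose from 263 ± 4.92 to 309 ± 23.8 CPM (log2 fold change 0.23, SE 0.0529, adjusted p = 0.00404). Its siTRIM28 libraries ran from 292 to 336 CPM, with replicate 1 the highest. TARS1-DT overlaps TARS1 on the opposite strand. It had a mean of 2009.5 counts against 3730 for TARS1 and a log2 fold change of 0.25 (adjusted p = 0.0388). The asparaginyl enzyme NARS1 rose from 349.9 ± 10.4 to 406.9 ± 6.16 CPM (0.22, SE 0.0386, adjusted p = 7.79e-04). EPRS1, a fused glutamyl- and prolyl-tRNA synthetase, rose the least, from 183 ± 4.07 to 205 ± 3.68 CPM (0.16, SE 0.0400, adjusted p = 0.00660), and without siNC replicate 1 it no longer passed (adjusted p = 0.0662).

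WARS1 (chr14:100333790-100376285), the tryptophanyl enzyme, had the largest fall among cytosolic genes. It was at 36.5, 39.7 and 38.3 CPM in siNC and at 17.5, 17.9 and 17.8 CPM in siTRIM28, a ratio of 0.465. No siTRIM28 library came near the siNC range, and the log2 fold change was -1.11 (SE 0.0647, adjusted p = 1.55e-07). WARS1 is known as a gene induced by interferon, and it was set beside other interferon-induced or signalling genes. IFIT1 rose by 3.39, IFIT2 by 4.27, IFIT3 by 4.29 and ISG15 by 1.36 on the log2 scale. IRF1 had a log2 fold change of 0.32 (adjusted p = 0.0624).

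An interferon element, GAAANNGAA on either strand, was searched in the same windows and found in 4 of 30 members (13.3%): EARS2, GARS1, IARS1 and WARS1. The share was 8.11% of all windows and 8.74% of tested genes with a window. Its matches and those of the C/EBP-ATF core did not overlap. Of the 4 genes, 0 rose and 3 fell, against 21.3% and 20.5% of all genes tested, and IARS1 did not pass the test. The match of WARS1 is shown because the gene is the interferon-induced member. It lies 55 bases before a RefSeq start site of WARS1, at chr14:100375394-100375402 on the minus strand (GRCh38.p14), with the match in capitals and 5′ to 3′ along the gene.
WARS1: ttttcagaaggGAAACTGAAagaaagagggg

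VARS1 (chr6:31777518-31795752), for the valyl enzyme, was at 115, 112 and 121 CPM in siNC and at 71.9, 67.7 and 75.9 CPM in siTRIM28. Its groups did not overlap (log2 fold change -0.69, SE 0.0557, adjusted p = 1.92e-06). LARS1 (chr5:146110566-146182647), for the leucyl enzyme that also serves as a leucine sensor of the mTORC1 pathway, was at 542, 544 and 546 CPM in siNC and at 429, 419 and 410.0 CPM in siTRIM28. The siNC libraries spanned a few CPM and each siTRIM28 library lay far below them (-0.38, SE 0.0359, adjusted p = 7.28e-06). The glycyl enzyme GARS1 fell from 103 ± 1.62 to 85.0 ± 4.62 CPM (-0.28, SE 0.0519, adjusted p = 9.56e-04). The tyrosyl enzyme YARS1 fell from 115 ± 6.54 to 103 ± 1.62 CPM (-0.16, SE 0.0510, adjusted p = 0.0225), and it did not pass without siNC replicate 2 (adjusted p = 0.127) or without siTRIM28 replicate 3 (0.0501).

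FARSA and FARSB encode the catalytic and the other subunit of the phenylalanyl enzyme, which is built from both. FARSA was at 53.5, 51.6 and 52.1 CPM in siNC and at 58.0, 51.7 and 54.9 CPM in siTRIM28, and its groups overlapped (log2 fold change 0.07, SE 0.0601, adjusted p = 0.402). FARSB was at 33.9, 32.6 and 33.3 CPM in siNC and at 28.9, 30.2 and 30.4 CPM in siTRIM28, without overlap (-0.16, SE 0.0600, adjusted p = 0.049997). That p lay just inside the threshold, and FARSB passed in 0 of the 6 fits that left out a library. The log2 ratio of FARSA to FARSB, each per length of its gene model, was 2.13, 2.13 and 2.12 in siNC and 2.48, 2.25 and 2.33 in siTRIM28. All 3 ratios were higher in siTRIM28, by 0.23 on average, with an exact two-sided permutation p of 0.1, the smallest that 3 against 3 libraries allow.

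HARS1 and its mitochondrial counterpart HARS2 are neighbours on chromosome 5 that are transcribed away from each other, and both encode histidyl-tRNA synthetases. HARS1 was at 114, 117 and 116 CPM in siNC and at 117, 106 and 105 CPM in siTRIM28, where replicate 1 lay within the siNC range (log2 fold change -0.08, adjusted p = 0.225), and without that replicate it passed the test (adjusted p = 0.0142). HARS2 was at 40.3, 44.8 and 45.6 CPM in siNC and at 42.2, 42.7 and 44.9 CPM in siTRIM28, with full overlap (-0.01, SE 0.0661, adjusted p = 0.929). The log2 ratio of HARS1 to HARS2 per length was -0.52 ± 0.0798 in siNC and -0.59 ± 0.121 in siTRIM28 (exact two-sided permutation p = 0.4, smallest possible 0.1). ZMAT2 overlaps HARS2 on the same strand. It had a mean of 4669 counts against 565 for HARS2 and a log2 fold change of -0.44.

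The other cytosolic genes that did not pass were IARS1 (-0.10, adjusted p = 0.142), KARS1 (-0.03, 0.704), QARS1 (-0.11, 0.0590), RARS1 (-0.13, 0.119) and SARS1 (-0.03, 0.592). They encode the isoleucyl, lysyl, glutaminyl, arginyl and seryl enzymes, and their siNC means ran from 64.6 CPM (RARS1) to 254 CPM (SARS1). RARS1 passed without siTRIM28 replicate 2 (adjusted p = 0.0325). A p past the threshold does not show that these levels were equal between the groups.

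**Figure D2:**
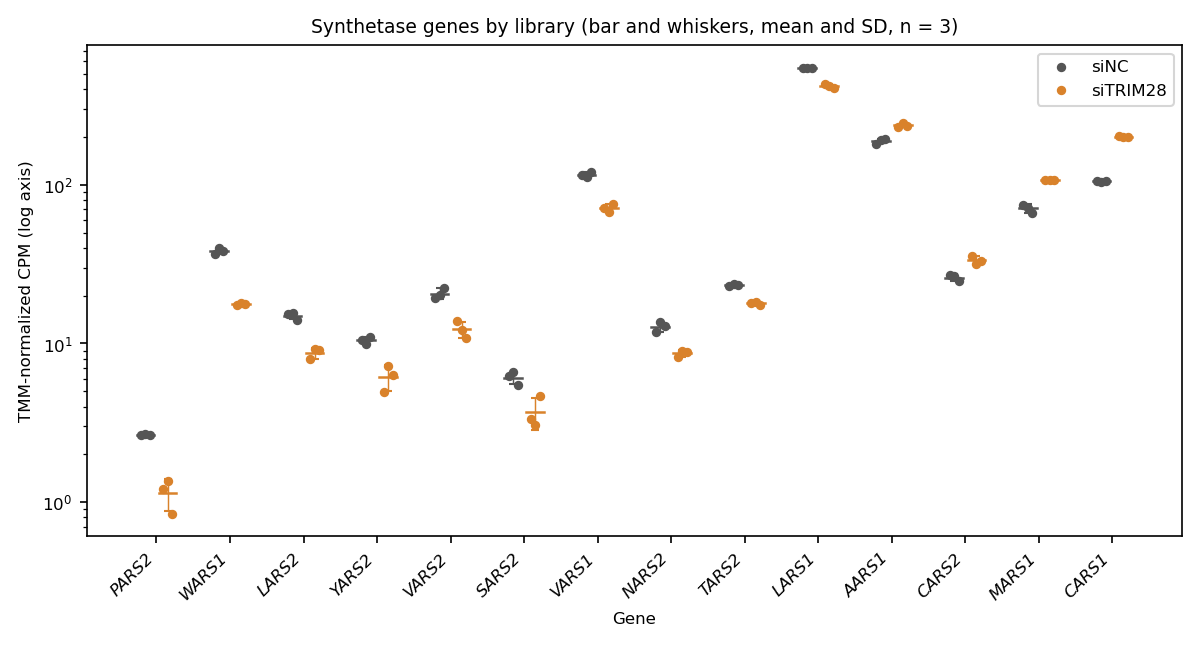
TMM-normalized CPM (log axis) in each library for the 14 synthetase genes that passed the test with the largest absolute log2 fold changes, ordered from the lowest to the highest fold change. Points are single libraries, bars are means and whiskers are SD (n = 3). In each of the 14 genes the siNC and siTRIM28 points do not overlap.

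In the mitochondrial list, PARS2 (chr1:54756898-54764523), for the prolyl enzyme, had the lowest fold change and few reads. Its counts were 37, 37 and 34 in siNC and 17, 16 and 10 in siTRIM28, or 2.66, 2.67 and 2.67 CPM against 1.21, 1.35 and 0.845 CPM. Each siTRIM28 library was under each siNC library (log2 fold change -1.22, SE 0.227, adjusted p = 0.00110). The SE was the largest among the members that passed.

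LARS2 (chr3:45388561-45548599), for the mitochondrial leucyl enzyme, was at 15.3, 15.5 and 14.1 CPM in siNC and at 7.93, 9.21 and 9.04 CPM in siTRIM28. It did not overlap between the groups (-0.78, SE 0.0914, adjusted p = 3.48e-05). YARS2 (chr12:32727490-32755796), for the tyrosyl enzyme, was at 10.5, 9.90 and 10.98 CPM in siNC and at 4.93, 7.18 and 6.33 CPM in siTRIM28. Again no library of one group reached the other, although siTRIM28 varied more (-0.78, SE 0.136, adjusted p = 7.17e-04). DNM1L overlaps YARS2 on the opposite strand. It had a mean of 2525 counts against 109 for YARS2 and a log2 fold change of -0.41. On the same strand as YARS2, the overlapping gene ENSG00000275854 had a mean of 50.8 counts and a log2 fold change of -0.52. VARS2 (chr6:30914205-30926459), for the valyl enzyme, was at 19.3, 20.1 and 22.4 CPM in siNC and at 13.8, 12.2 and 10.9 CPM in siTRIM28. Its groups were apart too (-0.74, SE 0.0949, adjusted p = 7.64e-05). ENSG00000288473, a gene without a symbol, overlaps VARS2 on the same strand. It had 403 counts on average against 216 for VARS2 and a log2 fold change of -0.56.

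SARS2 (chr19:38915266-38930758), for the seryl enzyme, was at 6.19, 6.57 and 5.49 CPM in siNC and at 3.36, 3.04 and 4.64 CPM in siTRIM28. Its highest siTRIM28 library lay under its lowest siNC library (-0.73, SE 0.175, adjusted p = 0.00557). ENSG00000269547 overlaps SARS2 on the same strand. It had a mean of 85.7 counts against 64.2 for SARS2 and a log2 fold change of -0.44. NARS2 (chr11:78435620-78574874), for the asparaginyl enzyme, was at 11.8, 13.7 and 12.9 CPM in siNC and at 8.21, 8.95 and 8.78 CPM in siTRIM28. No value overlapped (-0.56, SE 0.0950, adjusted p = 5.52e-04). TARS2 (chr1:150487414-150507598), for the threonyl enzyme, was at 23.2, 23.8 and 23.3 CPM in siNC and at 17.9, 18.2 and 17.6 CPM in siTRIM28, with little spread in either group (-0.39, SE 0.0626, adjusted p = 4.07e-04). EARS2, for the glutamyl enzyme, fell from 12.9 ± 0.825 to 10.6 ± 0.313 CPM (-0.29, SE 0.0863, adjusted p = 0.0174), and did not pass without siNC replicate 1 (adjusted p = 0.0544) or siNC replicate 2 (0.0912).

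CARS2 (chr13:110641412-110713522), for the mitochondrial cysteinyl enzyme, was the exception in direction. It was at 27.0, 26.4 and 24.6 CPM in siNC and at 35.6, 31.6 and 33.3 CPM in siTRIM28, with every siTRIM28 library above every siNC library (0.37, SE 0.0697, adjusted p = 0.00132). ING1 overlaps CARS2 on the opposite strand. It had a mean of 749.7 counts against 387 for CARS2 and a log2 fold change of 0.56. MARS2, the methionyl gene, had only 14, 23 and 15 counts in siNC and 17, 27 and 24 in siTRIM28, with a log2 fold change of 0.49 and an SE of 0.300 (adjusted p = 0.215). Its groups overlapped, and without siTRIM28 replicate 1 it passed (log2 fold change 0.74, adjusted p = 0.0403).

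The remaining mitochondrial genes that did not pass lay between -0.21 and -0.12. They were FARS2 (-0.21, adjusted p = 0.350), AARS2 (-0.20, 0.0755), WARS2 (-0.19, 0.186), IARS2 (-0.13, 0.0558) and RARS2 (-0.12, 0.200), for the phenylalanyl, alanyl, tryptophanyl, isoleucyl and arginyl enzymes. IARS2 passed without siTRIM28 replicate 1 (adjusted p = 0.0266) and AARS2 without siTRIM28 replicate 3 (0.0184).

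Summed over the list, the mitochondrial genes were at 314, 327 and 324 CPM in siNC and at 276, 279 and 287 CPM in siTRIM28, a ratio of 0.873. The cytosolic sum was 2936, 2958 and 2966 CPM in siNC and 3044, 2990 and 2970 CPM in siTRIM28, so rises and falls in the list left its sum within a few percent. As RPKM, counts divided by gene model length and library size, levels in siNC ran from 4.28 (IARS1) to 85.6 (NARS1) over the cytosolic genes, with a median of 18.9, and from 0.423 (MARS2) to 18.2 (IARS2) over the mitochondrial genes, with a median of 2.32. The highest cytosolic levels after NARS1 were those of SARS1 at 65.9 and TARS1 at 61.8 RPKM. The lengths merge all transcripts of a gene, 2147 to 22418 bases, so genes with long merged models have lower values on this scale.

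Genes for the same amino acid were set side by side in 17 pairs, with EPRS1 and FARS2 each in 2 of them. The log2 fold change of the cytosolic gene was above that of its mitochondrial counterpart in 14 pairs and below it in 3 (HARS1 and HARS2, RARS1 and RARS2, WARS1 and WARS2). The difference within a pair was not tested. It ran from -0.92 (WARS1 and WARS2) to 1.38 (EPRS1 and PARS2), and in some pairs it was very small. It was 0.036 for IARS1 and IARS2, whose standard errors were 0.0502 and 0.0515. For VARS1 and VARS2 it was 0.047, and for RARS1 and RARS2 -0.011. Both genes fell for leucine (LARS1 and LARS2), valine (VARS1 and VARS2) and tyrosine (YARS1 and YARS2), and both rose for cysteine (CARS1 and CARS2). In 4 pairs the cytosolic gene rose and the mitochondrial gene fell: EPRS1 with EARS2, EPRS1 with PARS2, NARS1 with NARS2, and TARS1 with TARS2. The reverse was found in 0 pairs.

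Grouped by enzyme class, 2 of 9 cytosolic class I genes rose and 4 fell (median -0.13), and 3 of 9 class II genes rose and 2 fell (median -0.03), with EPRS1 left out because its product has a part of each class. The shares that rose, 22.2% and 33.3%, and that fell, 44.4% and 22.2%, stand against 21.3% and 20.5% of all genes tested, so the class I rises and the class II falls were near those shares. Of the mitochondrial genes, 1 of 9 in class I rose (11.1%) and 4 fell (44.4%, median -0.19), and in class II 0 of 7 rose and 4 fell (57.1%, median -0.39). The multi-synthetase complex holds the products of 7 of these genes (EPRS1, IARS1, KARS1, LARS1, MARS1, QARS1 and RARS1), of which 2 rose (28.6%) and 1 fell (14.3%), again against 21.3% and 20.5% of all genes tested (median -0.10). Of the 12 cytosolic genes outside it, 4 rose (33.3%) and 5 fell (41.7%; median -0.05).

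Of the 11 cytosolic genes known as ATF4 targets from background knowledge, 6 rose (AARS1, CARS1, EPRS1, MARS1, NARS1 and TARS1), 3 fell (GARS1, WARS1 and YARS1), and IARS1 and SARS1 did not pass. These are 54.5% and 27.3%, against 21.3% higher and 20.5% lower of all genes tested, and their median log2 fold change was 0.16. Of the other 8 cytosolic genes, 0 rose and 3 fell (37.5%), with a median of -0.12. Of the 8 members with the C/EBP-ATF core printed above, AARS1, CARS1, MARS1, NARS1 and TARS1 rose, GARS1 and YARS2 fell, and IARS1 did not pass, which is 62.5% higher and 25.0% lower with a median of 0.23. Of the 22 members with a window and no core, 2 rose (9.09%) and 8 fell (36.4%), with a median of -0.13. The core was in 7 of 16 cytosolic but only 1 of 14 mitochondrial members with a window. Members with and without it therefore also differed in compartment, and these counts were not split by compartment. IARS1 held the same 8 letters as CARS1 close to its start site, with a log2 fold change of -0.10 against 0.93. These groupings are counts on a list whose values were known, and none was tested against other genes.

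The amino acid response, in which uncharged tRNA activates the kinase GCN2 and ATF4 is translated, was described by a list of 25 genes, of which 23 were tested. Of these, 13 rose (56.5%, against 21.3% of all genes tested) and 5 fell (21.7%, close to the 20.5% of all genes tested), with a median log2 fold change of 0.21. ATF4 itself rose from 184 ± 6.48 to 286 ± 14.4 CPM (0.64, adjusted p = 1.10e-06). The largest rises were NUPR1 (1.26, adjusted p = 0.00103), DDIT3 (0.91, 6.07e-06), VLDLR (0.85, 9.15e-07) and CEBPB (0.83, 5.38e-06). NUPR1 had few reads, with 20, 17 and 13 counts in siNC and 49, 33 and 30 in siTRIM28. DDIT3 and CEBPB encode partners of ATF4 in the C/EBP family. EIF2AK4, the gene for GCN2, fell from 106 ± 0.782 to 54.6 ± 1.82 CPM (-0.96, adjusted p = 6.21e-08), and SLC7A5, for a transporter of large neutral amino acids, fell from 23.7 ± 2.73 to 9.79 ± 2.41 CPM (-1.26, adjusted p = 2.43e-05).

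Partners of aminoacylation were described by a list of 13 genes, of which 0 rose and 6 fell (46.2%), against 21.3% higher and 20.5% lower of all genes tested (median -0.25). All 3 scaffold genes of the multi-synthetase complex fell: AIMP1 from 98.9 ± 3.74 to 74.6 ± 5.92 CPM (-0.41, adjusted p = 2.86e-04), AIMP2 from 7.13 ± 0.532 to 4.85 ± 0.555 CPM (-0.56, 0.00690) and EEF1E1 from 31.2 ± 2.28 to 26.3 ± 1.57 CPM (-0.25, 0.0186). GATB had the lowest value of the list. It encodes a subunit of the amidotransferase that makes mitochondrial glutaminyl-tRNA from tRNA charged by EARS2, and it fell from 25.1 ± 2.30 to 8.93 ± 1.67 CPM (-1.48, SE 0.117, adjusted p = 1.57e-06). QRSL1, for another subunit, had a log2 fold change of -0.17 (adjusted p = 0.0481), which passed in 1 of the 6 fits that left out a library. DTD1, whose product removes D-amino acids from tRNA, fell from 154 ± 2.76 to 115 ± 3.78 CPM (-0.41, adjusted p = 1.81e-05).

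Of 22 genes for maturation, export and delivery of tRNA, 2 rose (9.09%) and 13 fell (59.1%), against 21.3% and 20.5% of all genes tested (median -0.25). TUFM and TSFM, the elongation factors that bring charged tRNA to the mitochondrial ribosome and recharge the carrier, fell from 241 ± 4.02 to 145 ± 15.3 CPM (-0.73, adjusted p = 4.04e-06) and from 31.5 ± 1.60 to 22.9 ± 2.37 CPM (-0.47, 7.52e-04). The tRNA methyltransferase genes METTL1 (-0.79, adjusted p = 2.98e-05), TRMT61A (-0.77, 0.0123), TRMT1 (-0.58, 1.83e-04) and TRMT5 (-0.39, 0.00177) fell as well. The 2 that rose, named after their values were seen, were XPOT, the exportin of tRNA (0.34, adjusted p = 3.23e-04), and the methyltransferase gene NSUN2 (0.33, 4.66e-04).

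**Figure D3:**
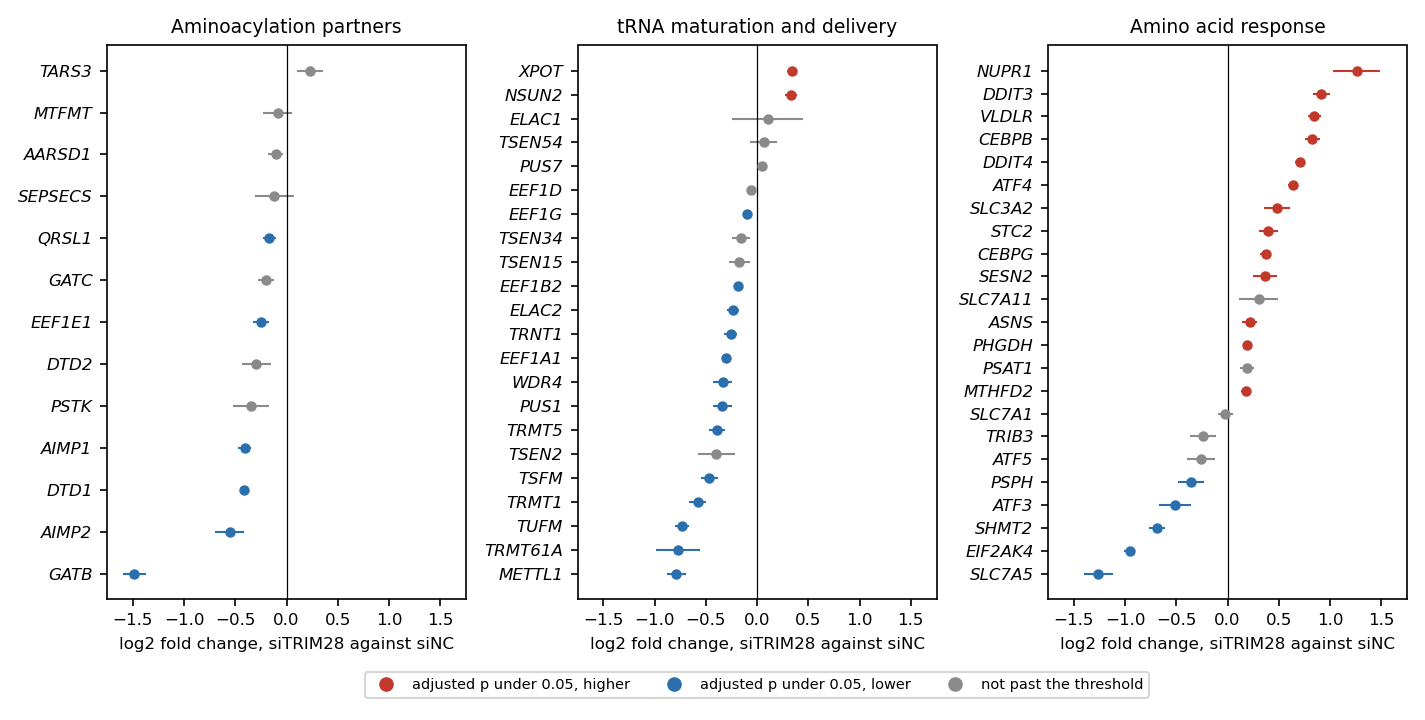
Log2 fold change (siTRIM28 against siNC) with bars of 1 standard error for the tested genes of 3 lists around the synthetases: 13 aminoacylation partners, 22 genes of tRNA maturation, export and delivery, and 23 genes of the amino acid response. In the left and middle panels falls outnumber rises, 6 to 0 and 13 to 2, while on the right 13 genes rose and 5 fell. Of all genes tested, 21.3% rose and 20.5% fell.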

How the data were processed

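The deposited table holds unnormalized read counts for 78932 genes of GRCh38, made by the authors, with a merged exon length and a column for each library. The submitters' processing notes name fastp 0.23.1, STAR 2.7.6a and featureCounts. The strand setting and the treatment of duplicates are not given in the sources used here. The deposited table of the authors' differentially expressed genes was not used.

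edgeR 4.0.16 (R 4.3.3, TMM scaling, quasi-likelihood test on condition) was run on genes reaching 10 counts in 3 or more libraries, and Benjamini-Hochberg adjusted p-values over all tested genes were held against 0.05. Standard errors were taken from the log2 fold change over the root of the F statistic. CPM values are TMM-normalized. The ratios used an exact two-sided permutation test. The common biological coefficient of variation was 0.0733. On simulated counts for 18035 genes, 199 of 200 genes changed by 0.8 (log2) were recovered, and 4 unchanged genes were called. The changed genes were drawn only from genes with higher mean counts, and all genes shared the common dispersion. The simulation therefore does not cover members with few reads, such as PARS2 and MARS2, smaller changes, or the uneven spacing of the real libraries.

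The members, lists, tests and motifs were chosen with earlier results of these data known. Values by library are given for members past the test, up to the 14 largest absolute log2 fold changes, for FARSA, FARSB, HARS1, HARS2 and TRIM28. Of each other list, up to 6 genes past the test with the largest absolute changes are named, and ATF4. A listed gene is not reported here. Libraries of a group all differed by more than sampling noise and were counted separately. The excess was small in siNC replicates 1 and 2 (chi-square per degree of freedom 1.08) and siTRIM28 replicates 2 and 3 (1.24). Whether these close pairs came from separate cultures cannot be told from the counts. With them summed, 5935 genes passed instead of 7723. Alternatives were other scalings, DESeq2 1.42.0, limma-voom (limma 3.58.1), other filters, a replicate block, a stricter threshold, each library left out, and the 2 close pairs of libraries summed. Motifs were searched and tables written in Python 3.11.15 (pandas 2.3.3, numpy 2.4.6, scipy 1.17.1), and figures drawn with matplotlib 3.10.9.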

Additional observations from a re-analysis of the deposited data

How the results depend on the processing

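Of the 21 synthetase genes past the test, 17 also passed in the same direction under all 16 alternatives, while EPRS1 passed in 14, EARS2 in 11, YARS1 in 10 and FARSB in 2. The number of members past the test ran from 17 (close pairs of libraries summed) to 23 (limma-voom, and without siTRIM28 replicate 1). The median log2 fold change of the cytosolic genes, -0.08, was -0.0474 with upper-quartile scaling, -0.0625 with total-count scaling, -0.0610 with close pairs summed, and between -0.0999 and -0.0623 with 1 library left out. That of the mitochondrial genes, -0.25, was between -0.35 (without siTRIM28 replicate 3) and -0.23 with 1 library left out, and the number of them that rose was 1 to 2. Signs changed in 3 genes that never passed: KARS1 was at 0.0033 with upper-quartile scaling, 0.0066 with close pairs summed and between -0.094 and 0.0046 with 1 library left out, SARS1 was at 0.0063 with upper-quartile scaling, and HARS2 was at 0.026 with upper-quartile scaling, 0.011 with total-count scaling and between -0.070 and 0.022 with 1 library left out. Their causes were not tested. Over all genes, 7723 passed, against 5878 with DESeq2 and 5393 at an adjusted p under 0.01, and upper-quartile scaling moved the share of higher calls from 51.1% to 56.6%. Correlations of deviations were 0.0523, -0.0118 and 0.0374 between libraries of the same replicate number. Between libraries of different numbers they ran from -0.0655 to 0.0387. With 3 libraries per group, these values cannot tell whether the replicate numbers mark a pairing. With the replicate number as a block, 7910 genes and 20 members passed, FARSB being lost. PARS2 and MARS2 had the fewest reads, with 10 to 37 counts per library.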
